A study of Mus musculus with 6 samples.

Results

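The genes described here encode enzymes that handle NAD, ATP and adenosine at the surface of blood cells: Bst1, Cd38, Entpd1, Nt5e and Ada. They were chosen by name, with earlier results of these data known. Their Entrez Gene identifiers picked out 5 of the 26286 rows of the count table. All 5 were in the table, and 4 passed the filter on low counts, Nt5e being the exception. RNA was sequenced from B progenitor acute lymphoblastic leukemia cells of 6 mice, 3 untreated and 3 fed doxycycline (dox) for 3 days, a treatment that the labels call Pax5 restoration.

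In both groups the cells belonged to 1 tri-transgenic leukemia, A024, and were sorted from marrow of leukemic hosts that lack Rag1 (Rag1 knockout). Untreated cells were GFPhigh and dox-treated cells were GFPmid, so gate and treatment cannot be told apart. As background from the published model, the transgenes let dox shut off a short hairpin RNA against Pax5, the factor that commits progenitors to the B lineage. The labels used here do not describe the constructs or give the ages of the mice. Hosts without Rag1 lack mature T and B cells of their own but keep myeloid, erythroid and stromal cells. The replicates are mice that carry the same leukemia, and p-values cover variation among hosts of 1 leukemia only. A group given dox but lacking the hairpin was not analysed here. Below, the 3 values of a group are always in the order of replicates 1, 2 and 3.

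CD38 and BST1 are related enzymes that split NAD outside the cell and make the calcium messenger cyclic ADP-ribose. BST1, also called CD157 or BP-3, is held in the membrane by a lipid anchor and has long served as a marker of early B cells, while CD38 spans the membrane and marks many lymphocytes. The second chain of reactions runs from ATP to inosine: CD39, encoded by Entpd1, turns extracellular ATP and ADP into AMP, CD73, encoded by Nt5e, turns AMP into adenosine, and adenosine deaminase, encoded by Ada, turns adenosine into inosine. Adenosine deaminase works largely inside the cell, where it also clears deoxyadenosine, and its loss causes a severe immunodeficiency of lymphocytes.

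The libraries held between 14185203 and 15612435 counts each. Pax5 rose from 117.5 ± 32.0 to 246.3 ± 30.2 CPM (counts scaled to library size; SD, n = 3 each), so it was also read before dox. Across all 12275 genes tested, 53.6% passed the test (edgeR quasi-likelihood test, Benjamini-Hochberg adjusted p under 0.05), made up of 27% that were higher and 26.6% that were lower after dox. The median log2 fold change of all genes was 0.01. The 8 markers of the B lineage were all higher after dox, with summed levels of 4258 to 4350 CPM in untreated and 7391 to 8149 CPM in dox libraries, with Vpreb1 the most abundant.

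Of the 4 genes tested, 3 rose (Cd38, Bst1 and Entpd1) and 1, Ada, fell. Against the background of 53.6% called, 4 of 4 passed, and the median log2 fold change of these 4 was 1.31. As the genes were chosen with earlier results of these data known, this count is a description only. For all 4 the CPM of the dox libraries did not overlap those of the untreated libraries, as was true of 62.2% of all genes tested (31.2% with dox above and 31% with dox below). An exact two-sided permutation test of each gene's log2 CPM gave p = 0.1, which no comparison of 3 with 3 libraries can go below. In bulk RNA, fewer cells that read a gene and less of its RNA per cell cannot be told apart.

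**Figure D1:**
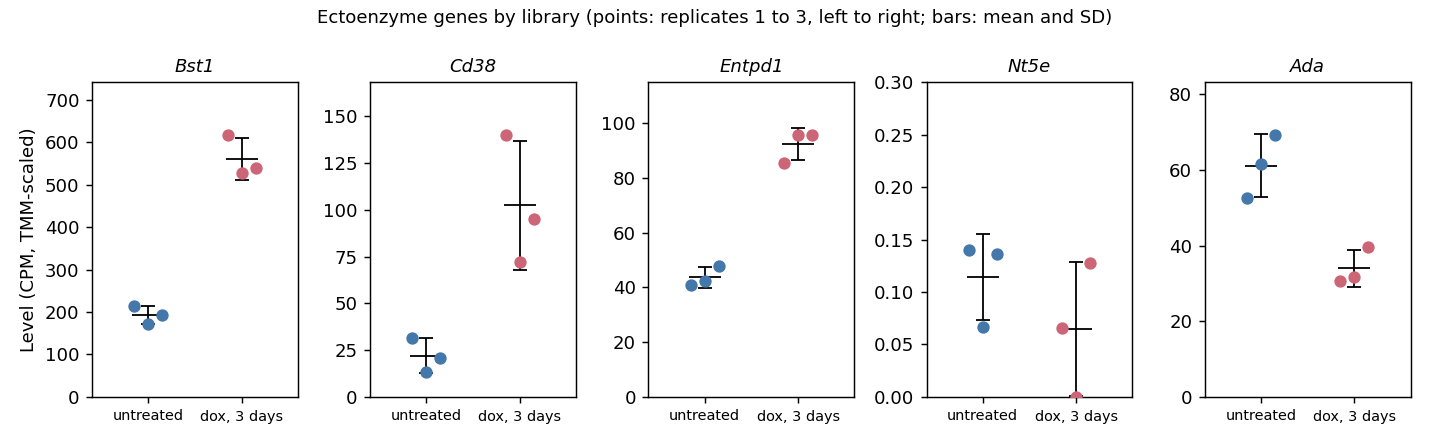
Levels of the 5 genes in each library, in CPM on the TMM scale (y axis, separate for each gene and starting at 0), with untreated mice in blue and dox-treated mice in red. Points are replicates 1 to 3 from left to right and bars are the mean and SD of 3 libraries. The dox libraries of Bst1, Cd38 and Entpd1 lie above all untreated ones, those of Ada lie below, and Nt5e stays under 0.15 CPM throughout.

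Among the NAD enzymes, Bst1 (Entrez Gene 12182) was the most abundant gene of the group. Untreated mice had 214, 172 and 193 CPM, and mice on dox had 617, 527 and 538 CPM. The highest untreated library thus lay far below the lowest dox library, and the libraries within a group differed by at most 1.25 times. The rise was 2.90-fold, a log2 fold change of 1.54 (SE 0.10, 95% interval 1.31 to 1.76, edgeR adjusted p = 7.29e-06).

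In the GENCODE M21 annotation of build GRCm38, exons of Bst1 overlap exons of its neighbour Fbxl5, an iron-sensing ubiquitin ligase subunit, on the other strand. The strand setting of the counting is not given in the sources used here, so reads from the shared stretch cannot be told apart. Fbxl5 itself rose from 132 to 204 CPM (log2 fold change 0.63, SE 0.11, edgeR adjusted p = 0.00112). None of the other 4 genes had an exon overlap with another gene in that annotation.

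Cd38 (Entrez Gene 12494) had the largest change of the group and the widest spread. Untreated mice had 31.7, 13.4 and 21 CPM, and mice on dox had 140.1, 72.0 and 95 CPM. Replicate 1 was the highest and replicate 2 the lowest of each group, with a 2.37-fold range among untreated and a 1.94-fold range among dox libraries, and the groups did not overlap. The rise was 4.66-fold (log2 fold change 2.22, SE 0.31, 95% interval 1.52 to 2.92, edgeR adjusted p = 0.000327). By log2 fold change Cd38 was number 209 from the top of all genes tested.

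Markers of myeloid cells moved with this comparison. Of 12 macrophage and monocyte markers, 10 were tested and 9 rose. Their summed level was 30.1, 20.4 and 26.0 CPM before dox and 115, 52.6 and 66.7 CPM after it. Of 12 neutrophil markers, 10 were tested and 9 rose. The summed levels of this list were 119, 92.6 and 108 CPM before and 551, 118 and 263 CPM after dox. Among all genes tested, 27% were higher. Some of these markers, such as Adgre1, C1qb, Cd5l and Cxcr2, passed the low-count filter only with the help of dox libraries, which favours rises among those tested. In both sums, as for Cd38, replicate 1 was the highest and replicate 2 the lowest of each group. In the macrophage list that order after dox rested on Lyz2, which granulocytes also express: without it the other 11 genes summed to 13.5, 7.25 and 7.27 CPM before and 39.9, 35.9 and 31.8 CPM after dox, with dox replicate 3 the lowest. Bst1 had the order of Cd38 too, whereas in Entpd1 and Ada replicate 1 was the lowest of each group.

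The most abundant of these markers were Lyz2, which encodes lysozyme, and Vcam1, an adhesion molecule, among the macrophage genes, and S100a9 and S100a8, calcium-binding proteins of granulocytes, among the neutrophil genes. No marker of either list was at 0 in all libraries, while Marco, a receptor of resident macrophages, was at 0 in the 3 untreated ones. Cells were sorted on GFP, with a different gate in each group, and the purity of the sort was not examined here. The part of myeloid RNA in the rise of Cd38 and Bst1 was not tested. Without dox replicate 1, which held the most of both lists, the log2 fold change was 1.92 for Cd38 and 1.46 for Bst1 (edgeR adjusted p = 0.00056 and 1.74e-05). The remaining dox libraries still held more of the macrophage list than any untreated library, so this step does not take out myeloid RNA.

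**Figure D2:**
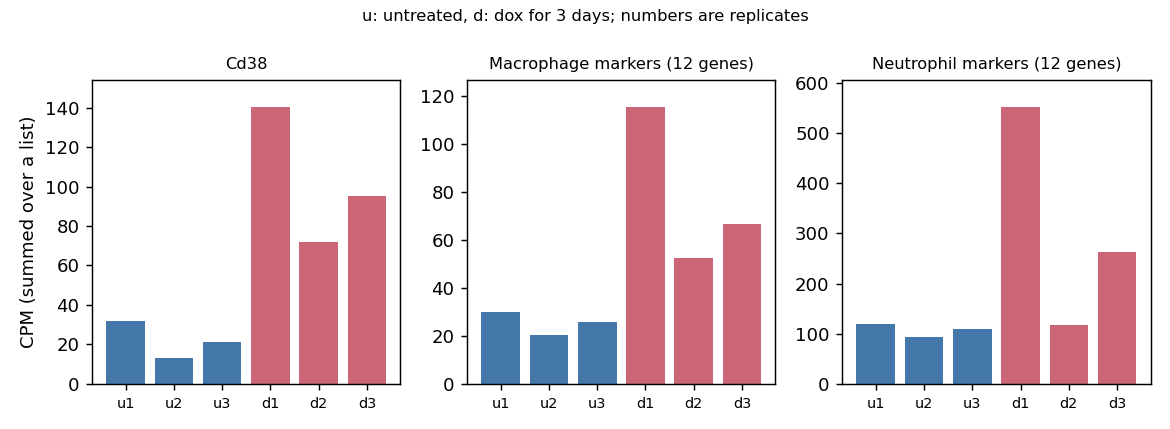
Level of Cd38 (left) and summed levels of 12 macrophage markers (middle) and 12 neutrophil markers (right), in CPM on axes that start at 0, with 1 bar for each library (u, untreated; d, dox for 3 days; replicates 1 to 3). Dox replicate 1 is the highest bar of all 3 panels, at 140.1, 115 and 551 CPM.

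Stromal and endothelial cells and T cells are also known to carry some of these enzymes. Of 10 stromal markers, 7 were detected, with Pdgfra, Lum and Dcn at 0, and their sum was 0.67 to 2.31 CPM in untreated and 2.05 to 3.76 CPM in dox libraries, Col1a1 and Cxcl12 being the most abundant. Of 8 endothelial markers, 6 were detected, with Robo4 and Tie1 at 0. The endothelial sum of 94.1 to 101 CPM in untreated and 128 to 158 CPM in dox libraries came almost wholly from Pecam1, a known binding partner of CD38 that blood cells also express, followed by Cdh5. Of 12 T and NK cell markers, 10 were detected, with Cd3e and Cd8a at 0, and the sum of 122 to 140 CPM in untreated and 241 to 323 CPM in dox libraries was mostly Cd2 and Cd247. Of the 5 tested, 1 rose, Cd2 (31.4 to 198 CPM), 1 fell, Foxp3 (12.8 to 10.1 CPM), and Cd247 did not pass (79.6 and 78.2 CPM).

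The 8 erythroid markers, led by Hbb-b1 and Hba-a1, summed to 3.96 to 5.57 CPM in untreated and 1.32 to 8.69 CPM in dox libraries. The 6 plasma cell markers summed to 1365 to 1572 CPM and 1736 to 2314 CPM, mostly Irf4 and Xbp1, which B progenitors also express. Of the 5 tested, 3 rose (Irf4, Xbp1 and Prdm1) and 2 fell, Sdc1 from 50.3 to 17.2 CPM and Jchain from 192 to 58.3 CPM. Of the 8 dendritic cell markers, Cd209a was at 0, and the sum of 19.2 to 23.9 CPM in untreated and 15 to 33.1 CPM in dox libraries was mostly Bst2, followed by Itgax. Their part in the changes described here was not tested.

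Bst1 and Cd38 lie side by side on chromosome 5, with Fbxl5 on the far side of Bst1. On the far side of Cd38 the next protein-coding genes are Fgfbp1, with 0 counts in the 6 libraries together, and Prom1, with 25. The rise was thus measured in 3 adjacent genes, Fbxl5, Bst1 and Cd38, while the next genes outward, Cc2d2a with 8 counts and Fgfbp1, were too low to test. These neighbours were looked up after the values of the pair had been seen.

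To ask whether the balance of the 2 NAD enzymes shifted, the ratio of Cd38 to Bst1 was taken per gene length in each library. Cd38 stood at 11.5%, 6.07% and 8.50% of Bst1 in untreated mice and at 17.7%, 10.7% and 13.8% after dox. The groups overlapped, since untreated replicate 1 lay above dox replicate 2. The mean log2 ratio was −3.57 ± 0.46 in untreated and −2.86 ± 0.36 in dox libraries (SD, n = 3), a difference of 0.71 that did not pass (exact two-sided permutation test, p = 0.2; smallest possible p = 0.1).

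Along the chain from ATP to inosine, Entpd1, the first enzyme, rose. Entpd1 (Entrez Gene 12495) stood at 40.7, 42.5 and 47.9 CPM in untreated mice and at 85.4, 95.7 and 95.5 CPM after dox. The spread within a group was at most 1.18 times, the narrowest of the 4 genes tested, and the groups lay well apart. The change was 2.11-fold (log2 fold change 1.08, SE 0.09, 95% interval 0.88 to 1.27, edgeR adjusted p = 1.8e-05).

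Nt5e (Entrez Gene 23959), the enzyme of the next step, was hardly read at all. Untreated libraries held 2, 1 and 2 counts of it, and dox libraries held 1, 0 and 2. Every library was under the floor of 3 counts, equal to 0.192 to 0.21 CPM, so no fold change is given and a difference between groups was not detectable at this depth. These counts cover counting error only. The ratios of Nt5e to Entpd1 and of Ada to Nt5e were not formed for the same reason.

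Ada (Entrez Gene 11486), the enzyme that removes adenosine, was the gene that fell. Before dox it stood at 52.6, 61.5 and 69.3 CPM, and after dox at 30.7, 31.7 and 39.6 CPM. The lowest untreated library stood above the highest dox library. The level fell 1.8-fold (log2 fold change −0.85, SE 0.13, 95% interval −1.13 to −0.56, edgeR adjusted p = 0.000481). Tested against a minimum change of 1.5-fold, which asks for more than a difference from 0, Ada missed the threshold (edgeR glmTreat adjusted p = 0.0642).

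To compare the genes with one another, counts were divided by the deposited gene length, giving RPKM, which scales counts for both length and depth. In untreated mice the order was Bst1 (82.7 ± 9.10 RPKM), Ada (37.6 ± 5.14), Entpd1 (10.4 ± 0.90), Cd38 (7.35 ± 3.07) and Nt5e (0.032 ± 0.011; all SD, n = 3). The libraries of Entpd1 and Cd38 overlapped in that order, and the other neighbours did not. After dox the order was Bst1 (240.04 ± 21.2 RPKM), Cd38 (34.2 ± 11.6), Entpd1 (22 ± 1.40), Ada (20.9 ± 2.97) and Nt5e (0.018 ± 0.018; all SD, n = 3), with an overlap between Entpd1 and Ada. Ada, which stood next to Bst1 before dox, thus had the lowest mean but that of Nt5e after it, not separated from Entpd1.

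**Figure D3:**
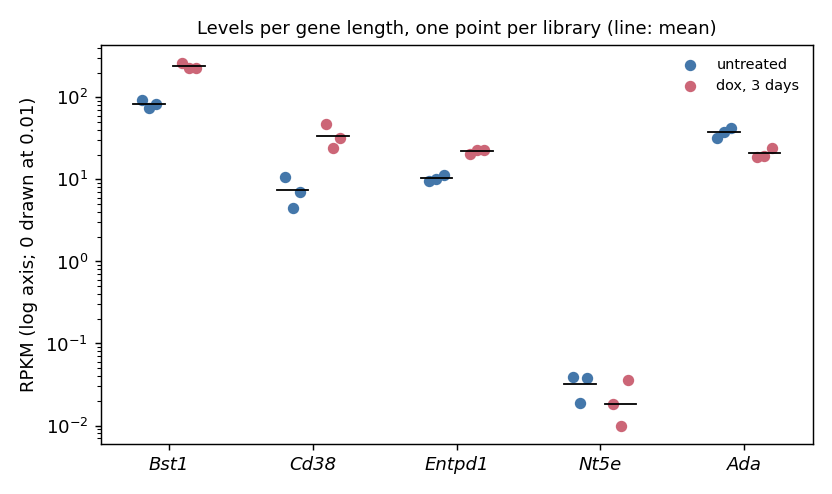
Levels per gene length in RPKM (log axis) of the 5 genes, with 1 point for each library (blue, untreated; red, dox for 3 days) and a line at each group's mean; a value of 0 is drawn at 0.01. Bst1 is the highest in both groups, and by mean level Ada goes from above to below Entpd1 and Cd38 from below to above it.

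Promoter sequences from RefSeq (build GRCm38.p6) covered 4 of the 5 genes, all but Bst1, and the 250 bases before the start were searched. The windows of Cd38, which had the largest rise, of Nt5e, which was hardly read, and of Ada, which fell, are shown 5′ to 3′ because they differ in base composition. Capitals mark GC boxes (GGGCGG) and E-boxes of the type bound by E proteins (CAGGTG), found on either strand. The windows lie at chr5:43868559-43868808 (plus strand, Cd38), chr9:88327359-88327608 (plus strand, Nt5e) and chr2:163750240-163750489 (minus strand, Ada).
Cd38: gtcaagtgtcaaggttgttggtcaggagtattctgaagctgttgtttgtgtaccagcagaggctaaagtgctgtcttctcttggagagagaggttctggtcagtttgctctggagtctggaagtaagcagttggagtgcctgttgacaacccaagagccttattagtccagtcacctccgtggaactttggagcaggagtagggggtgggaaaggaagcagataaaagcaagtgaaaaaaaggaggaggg
Nt5e: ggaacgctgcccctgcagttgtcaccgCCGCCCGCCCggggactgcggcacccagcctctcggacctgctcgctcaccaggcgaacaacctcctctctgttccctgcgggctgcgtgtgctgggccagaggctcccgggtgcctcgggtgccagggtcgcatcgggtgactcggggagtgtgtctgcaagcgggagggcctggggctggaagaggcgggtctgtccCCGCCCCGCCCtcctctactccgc
Ada: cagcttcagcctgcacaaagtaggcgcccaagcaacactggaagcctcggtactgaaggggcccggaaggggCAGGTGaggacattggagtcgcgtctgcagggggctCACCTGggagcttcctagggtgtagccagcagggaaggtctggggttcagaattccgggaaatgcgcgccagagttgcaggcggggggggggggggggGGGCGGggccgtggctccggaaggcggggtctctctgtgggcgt

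The Cd38 window held 1 CpG pair and 48.8% G and C, the Nt5e window 21 and 72.0%, and the Ada window 14 and 67.2%, against medians of 6 pairs and 52.4% over 32817 windows of the same length. Cd38 had no match to any of 7 motifs searched, namely the GC box, the E-box, a Pax5 core (GCGTGAC), an Ebf1 palindrome (CCCNNGGG), a TATA box (TATAAA), an ETS core (CCGGAAGT) and an E2F site (TTTCCCGC). Close to the start of the gene, the Cd38 window holds a run that differs from the TATA box searched in 1 letter. That variant was left out of the search, so the lack of a match in Cd38 holds for the 7 motifs only. How often such a variant occurs in other windows was not counted, so its presence in Cd38 sets that window apart from none. Nt5e had 4 GC boxes, and Ada had 1 GC box and 2 E-boxes. GC boxes occur in 32.7% and these E-boxes in 17.2% of all windows, and the other motifs, in the order given, in 1.78%, 11.8%, 12.4%, 2.88% and 0.893%. Of the 2 windows of Entpd1, at alternative starts, 1 held a single E-box and the other a single Ebf1 palindrome. A match describes letters in these windows and shows no binding.

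Other genes of these pathways were taken from 5 lists with 107 genes in all, of which 106 were in the table and 75 were tested. Of those 75, 26 rose (34.7%) and 16 fell (21.3%), beside 27% and 26.6% of all genes tested. Their median log2 fold change was 0.12. These lists too were chosen with earlier results of these data known. The lists are described from NAD to calcium channels.

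**Figure D4:**
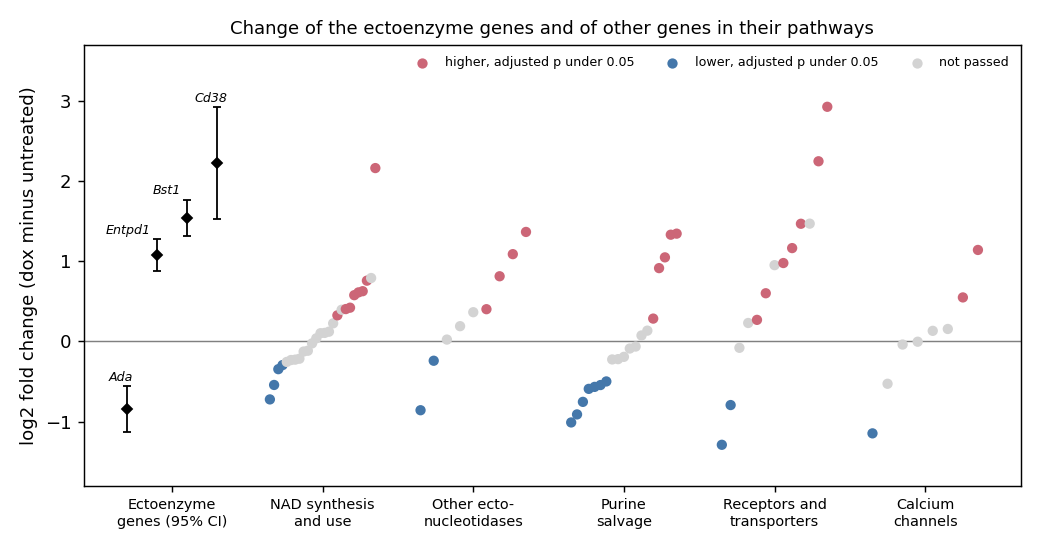
Log2 fold change (dox minus untreated, y axis) of 4 ectoenzyme genes with 95% intervals (black diamonds) and of the tested genes of 5 pathway lists, 1 point for each gene, red where higher and blue where lower at an edgeR adjusted p under 0.05 and grey otherwise. Points above 2 in the lists are Parp3 among the NAD genes and P2ry13 and P2rx3 among the receptors; purine salvage has 7 genes lower and 5 higher.

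Of 26 tested genes that make or use NAD inside the cell, 8 rose, 4 fell and 14 did not pass, with a median log2 fold change of 0.10. That is 30.8% higher and 15.4% lower, beside 27% and 26.6% of all genes tested. The genes that fell were Parp1, the main DNA damage sensor among poly(ADP-ribose) polymerases, from 673 ± 44.0 to 408 ± 10.3 CPM, Nadk2, a mitochondrial NAD kinase (log2 fold change −0.54, SE 0.08), Nampt, the rate-limiting enzyme of NAD salvage (−0.35, SE 0.10), and Nmrk1, a nicotinamide riboside kinase (−0.30, SE 0.07). Of the other members of the polymerase family, Parp3, Parp4, Parp9, Parp14 and Tnks2 rose, while Parp2 (log2 fold change −0.22, SE 0.09) and Tnks (0.10, SE 0.08) did not pass. Parp3 rose from 1.26 ± 0.51 to 5.64 ± 1.27 CPM, Parp4 by 0.76 (SE 0.10) and Tnks2, which encodes tankyrase 2, by 0.63 (SE 0.08) on the log2 scale. The fall of Nampt did not pass when any one of the 3 untreated libraries was left out (log2 fold change −0.36 to −0.34).

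Of 9 tested genes for other enzymes that break down nucleotides, or related to them, 4 rose, 2 fell and 3 did not pass. Their median log2 fold change was 0.36. Over all genes tested, 27% were higher and 26.6% lower. Alpl, an alkaline phosphatase that can also turn AMP into adenosine, rose from 158 ± 8.23 to 277 ± 17.1 CPM. Entpd7, a relative of Entpd1 in the secretory pathway, rose from 35.7 ± 1.16 to 75.9 ± 9.97 CPM, and Entpd4, a Golgi relative, by 0.40 (SE 0.12) on the log2 scale. Enpp4, a phosphodiesterase, rose by 1.36 (SE 0.33) from a mean of 0.433 CPM, and it passed the low-count filter only through the dox libraries. Entpd6 fell from 16.7 ± 1.18 to 9.20 ± 0.65 CPM, and Dpp4, a surface peptidase that binds adenosine deaminase in human cells, fell from 1306 ± 30.4 to 1105 ± 100.4 CPM.

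The fall of Dpp4 (log2 fold change −0.24, SE 0.08, edgeR adjusted p = 0.0366) did not pass when any library other than dox replicate 2 was left out, and in 4 of those 5 cases only 1 gene of the list, Entpd6, was lower. Entpd4 did not pass without untreated replicate 1 or 3 or dox replicate 2. Entpd2, Entpd3, Entpd8, Enpp1, Enpp2, Enpp3 and Enpp5 were too low to test.

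Of 19 tested genes of purine salvage, 7 fell (36.8%), 5 rose (26.3%) and 7 did not pass, with a median log2 fold change of −0.19. The shares over all genes tested were 26.6% lower and 27% higher. Tested against a minimum change of 1.5-fold, 2 were lower and 1 higher. Adk, the kinase that turns adenosine back into AMP, fell from 73.2 ± 2.72 to 36.3 ± 7.83 CPM. RNA of both Ada and Adk, whose enzymes remove adenosine, was thus lower after dox. The data hold RNA only, and removal of adenosine was not tested. Ahcy, which releases adenosine from S-adenosylhomocysteine, fell from 26.3 ± 0.41 to 14 ± 2.44 CPM, Ampd2, an AMP deaminase, by 0.75 (SE 0.10) and Nt5c3b, a cytosolic nucleotidase, by 0.50 (SE 0.08) on the log2 scale. Samhd1, which degrades deoxynucleotides, rose from 95.8 ± 17.8 to 241 ± 28.1 CPM, and Dck, the kinase that phosphorylates deoxyadenosine, from 745 ± 34.1 to 907 ± 7.05 CPM.

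The other genes of that list that rose, Ampd3, another AMP deaminase, Xdh, which makes uric acid, and Gda, a guanine deaminase, had means of 3.06 CPM or less. Ampd3 and Gda passed when dox replicate 2 was left out but not when any other library was, which left 3 members higher in those 5 cases. Pnp, which acts on the inosine that adenosine deaminase makes, stood at 314, 397 and 369 CPM before and 269, 461 and 303 CPM after dox and did not pass (log2 fold change −0.06, SE 0.18).

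Of 28 genes for receptors, transporters and release channels of adenosine and nucleotides, only 13 were abundant enough to test. Among these, 7 rose, 2 fell and 4 did not pass, with a median log2 fold change of 0.95. Over all genes tested, 27% were higher and 26.6% lower. P2ry12, P2ry13, P2ry14 and Slc29a4 passed the low-count filter only with the help of dox libraries, which favours rises among those tested. The median is the value of P2ry12. P2rx3, an ATP-gated cation channel, rose from 8.42 ± 3.13 to 63.8 ± 34.6 CPM. Its dox libraries were far apart, at 102.6, 36.3 and 52.4 CPM. P2rx4, of the same family, rose from 2.61 ± 1.03 to 7.20 ± 1.24 CPM and Slc28a2, which carries adenosine into cells with sodium, from 60.6 ± 7.03 to 119 ± 18.7 CPM.

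The transporters that fell were Slc29a1, the main equilibrative carrier of nucleosides, from 245 ± 4.41 to 141 ± 18.5 CPM, and its relative Slc29a2, from 6.4 ± 0.79 to 2.62 ± 0.24 CPM. Among the adenosine receptors, Adora1, Adora2b and Adora3 were too low to test, and Adora2a measured 0.58 to 1.38 CPM over the 6 libraries and did not pass (log2 fold change −0.08, SE 0.44). Slc29a4 and Panx1 passed with all libraries but not without some of them, among these untreated replicate 2 or 3.

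Of 8 tested calcium channels and related genes that respond to messengers such as cyclic ADP-ribose, NAADP and IP3, 2 rose, 1 fell and 5 did not pass. Their median log2 fold change was 0.06. The shares were 25% higher and 12.5% lower, beside 27% and 26.6% of all genes tested. Itpr2, an IP3 receptor, rose from 78.0 ± 6.73 to 172 ± 19.9 CPM and Tpcn2, a lysosomal channel opened by NAADP, from 13.9 ± 0.38 to 20.4 ± 2.16 CPM. Jpt2, an NAADP-binding protein, fell from 109.7 ± 4.17 to 49.6 ± 3.95 CPM. Ryr1 and Ryr2, receptors on which cyclic ADP-ribose is known to act, did not pass (log2 fold change −0.04, SE 0.43, and −0.53, SE 0.26). Ryr1 had means of only 0.73 CPM in untreated and 0.71 CPM in dox libraries. Ryr3 and Trpm2 were too low to test. Trpm2 held 1, 4 and 5 counts in untreated and 14, 14 and 9 in dox libraries. With 1 library left out at a time, 2 or 3 genes of this list rose.

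For each of the 4 tested genes, the genes most like it across the 6 libraries were found by the root-mean-square difference of mean-centred log2 CPM, among 10110 other genes whose mean reached 5 CPM. The nearest to Bst1 were Slfn2 (0.061) and Tnks1bp1 (0.064), and to Entpd1 Chd2 (0.026) and Asah2 (0.038), in log2 units. Those nearest to Cd38, H2-Oa (0.18) and Cacna1e (0.25), lay farther off than the nearest of the other genes. Ccp110 (0.057) was nearest to Ada, with a log2 fold change of −0.86. The measure follows the shared difference between groups and is a description over 6 libraries with no test.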

How the data were processed

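The authors deposited raw read counts per gene for 6 libraries, with gene lengths. Per the submitters' processing notes, CASAVA 1.8.2, featureCounts and build mm9 were used; of the aligner, the annotation and the strand setting nothing is stated in the sources used here. The reference at hand is of another build (GRCm38) and gave names, gene order, overlaps and RefSeq promoters. It named 24176 of 26286 identifiers. Per-sample files matched the series table.

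filterByExpr (minimum count 10) kept 12275 genes. Counts were TMM-scaled (factors 0.9907 to 1.009) and tested with the edgeR 4.0.16 quasi-likelihood test in R 4.3.3 without covariates, adjusted over all genes tested; SE is the log2 fold change over the square root of F. The fit was also run on simulated counts. These had the same spread for all genes and few changed genes, so that run does not show how the fit performs on the real counts.

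Members and the 5 pathway and 9 marker lists were chosen with earlier results of these data known. Named were the members, Pax5, the 5 called genes with the smallest p in each pathway list (mean of at least 1 CPM), all called genes where 5 or fewer moved one way, the 2 most abundant markers of each list, markers at 0 and the 2 nearest patterns per member. Some genes that the rule takes are left out here. Other genes were named after their values were seen. Alternatives were other scalings, filters and tests (limma 3.58.1, DESeq2 1.42.0), the replicate block, a minimum fold change and leaving out each library; the macrophage sum without Lyz2 was chosen after seeing the data.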

Additional observations from a re-analysis of the deposited data

How the results depend on the processing

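The changes of Bst1, Cd38, Entpd1 and Ada kept their direction under all 15 alternatives run, and passed the test in each, except that Ada had adjusted p = 0.0642 (log2 fold change −0.85) when tested against a minimum fold change of 1.5 with edgeR's glmTreat. That test asks for a larger change, and with it 928 genes were higher and 670 lower, with 9 higher and 6 lower in the pathway lists. Leaving out one library at a time gave log2 fold changes of 1.46 to 1.62 for Bst1, 1.92 to 2.57 for Cd38, 1.03 to 1.15 for Entpd1 and −0.98 to −0.75 for Ada, and 0.47 to 0.94 for the log2 ratio of Cd38 to Bst1. Replicate numbers were not treated as pairs: same-numbered libraries deviated together for numbers 1 and 2 (r = 0.305 and 0.288 across genes) but not for number 3 (−0.0373), and untreated replicate 3 correlated best with dox replicate 2 (0.0248). With the replicate block, 3434 genes were higher and 3356 lower (pathway lists: 27 and 18), and log2 fold changes were 1.54 for Bst1, 2.24 for Cd38, 1.08 for Entpd1 and −0.85 for Ada. Among genes named from the lists, Dpp4 did not pass with upper-quartile scaling (log2 fold change −0.21), Enpp4, Slc29a4 and Ampd3 did not pass the DESeq2 test (1.38, 1.17 and 0.91), Gda and Ampd3 did not pass limma voom (1.12 and 0.87), and the block gave 2 lower calcium genes in place of 1. Nt5e and both ratios that use it were planned but not run, since its counts were too low. Precision is limited by 3 mice a group from 1 leukemia and by a sort gate that changed with treatment.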
